A study of Mus musculus with 12 samples.

Results

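The genes described here are 9 transcription factors that set and maintain the hepatocyte programme: Hnf4a, Foxa1, Foxa2, Foxa3, Cebpa, Cebpb, Nr1h4 (the bile acid receptor FXR), Nr1i2 (the pregnane X receptor PXR) and Nr1i3 (the constitutive androstane receptor CAR). They were taken by symbol, not by their values, from an Affymetrix mouse expression array on which 18193 genes had a probe set annotated to their symbol alone. The 9 genes had 14 such probe sets out of 45037 on the array: 4 for Hnf4a, 2 each for Cebpb and Nr1i2, and 1 each for the other 6. Each gene is described by its brightest probe set, and the remaining probe sets are given where they differ.

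Primary hepatocytes of 4 groups were measured, with 3 arrays in each group. In the hAHR TCDD group, cells of mice that join the allele B6.Cg-Ahrtm3.1Bra with the transgenes Tg (Alb-cre, Ttr-AHR)1Ghp received 10 nM TCDD for 6 h, and in the hAHR DMSO group cells of the same strain received the DMSO vehicle. In the C57BL6/J TCDD and C57BL6/J DMSO groups, wild type cells received the same treatments. The hAHR strain carries a floxed mouse Ahr gene, a Cre recombinase driven by the albumin promoter and human AHR driven by the transthyretin promoter, so both transgenes depend on promoters of hepatocyte genes and the wild type cells carry none of these 3 alleles. Both genotypes had been cultured for 48 h in medium that held 2.5% DMSO and 10 nM dexamethasone, so the vehicle group is not free of either agent. The labels state neither the age nor the sex of the mice, and each array stands for a separate mouse by the design text.

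TCDD is a dioxin that binds AHR, a receptor that then enters the nucleus and pairs with ARNT on DNA. HNF4A is a nuclear receptor found on most hepatocyte enhancers, the FOXA proteins are forkhead factors that bind closed chromatin early in liver development, and the C/EBP proteins are leucine zipper factors of hepatocyte metabolism and of the acute phase response. FXR, PXR and CAR sense bile acids and foreign compounds and act on DNA with the retinoid X receptor RXR. Expression of several of these factors is known to decline when hepatocytes are kept in culture.

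Promoter windows from RefSeq (build GRCm38.p6) covered the 250 bases before the annotated start and matched all 9 genes with 12 windows, 2 for Hnf4a and 3 for Foxa2. They were searched on both strands for GCGTG (the core bound by AHR with ARNT), GTAAACA (forkhead), TTGCNNAA (C/EBP) and CAAAGTCCA (HNF4). GCGTG or its reverse complement lay in windows of 3 genes, Foxa2, Foxa3 and Cebpb (4 of 12 windows), and in 28.2% of all 32851 promoter windows. GTAAACA lay in the window of Foxa1 alone among the 9 genes and in 3.17% of all windows. The C/EBP and HNF4 letters were in 0 of the 12 windows, against 9.56% and 0.384% of all windows. None of the matches overlapped another. The windows of 3 genes are shown because Foxa3 and Cebpb had the smallest p values for TCDD averaged over genotypes and carry the AHR core, and Foxa1 carries a match to a factor of its own family, with the matched letters in capitals and each sequence written 5′ to 3′ on the gene's strand.
Foxa3, chr7:19023540-19023789, minus strand, AHR core: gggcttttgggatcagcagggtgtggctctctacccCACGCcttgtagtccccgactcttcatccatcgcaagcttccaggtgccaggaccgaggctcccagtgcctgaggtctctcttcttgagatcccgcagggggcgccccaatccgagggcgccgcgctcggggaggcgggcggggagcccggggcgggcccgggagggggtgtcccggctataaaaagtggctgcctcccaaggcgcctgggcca
Cebpb, chr2:167688665-167688914, plus strand, AHR core: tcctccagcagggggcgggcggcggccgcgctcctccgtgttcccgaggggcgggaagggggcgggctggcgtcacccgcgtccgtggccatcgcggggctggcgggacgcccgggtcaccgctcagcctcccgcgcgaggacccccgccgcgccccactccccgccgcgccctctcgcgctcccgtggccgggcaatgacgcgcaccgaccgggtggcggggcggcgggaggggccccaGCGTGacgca
Foxa1, chr12:57546112-57546361, minus strand, forkhead: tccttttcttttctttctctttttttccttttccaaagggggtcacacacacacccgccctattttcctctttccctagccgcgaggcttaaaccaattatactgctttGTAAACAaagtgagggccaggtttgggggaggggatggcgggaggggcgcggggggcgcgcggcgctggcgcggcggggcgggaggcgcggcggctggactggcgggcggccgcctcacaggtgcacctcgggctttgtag
A match here describes letters only, and the arrays measured no binding at these sites.

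Intensities were rescaled so that every array had a 2% trimmed mean of 150, and array medians then lay between 16.5 and 23.4. The 3 C57BL6/J TCDD arrays alone had been deposited at a trimmed mean of 500. Any effect of separate processing cannot be told apart from treatment or genotype in comparisons that include them. After rescaling their medians were 20.2 to 21.8, against 18.0 to 18.9 on the C57BL6/J DMSO arrays. Within-group correlations across genes lay between 0.958 and 0.985, and 3′ to 5′ Gapdh ratios between 0.798 and 0.841. The hepatocyte marker Alb, which encodes serum albumin, lay between 10484 and 16066 over the arrays. Mouse Ahr lay between 193 and 236 on the 6 hAHR arrays and between 223 and 617 on the 6 C57BL6/J arrays. The part of Ahr that the probe set reads is not known here, so it does not check the deletion. Cyp1a1, the classical AHR target, measured 6624, 4004 and 6939 on the hAHR TCDD arrays against 81.9, 63.0 and 60.5 on the hAHR DMSO arrays. Wild type cells gave 125, 2518 and 64.9 under TCDD against 25.3, 24.0 and 18.5 under DMSO, so the second TCDD array carried most of the Cyp1a1 signal there. Tiparp, another AHR target, measured 2575, 3324 and 2534 on the C57BL6/J TCDD arrays against 1402, 911 and 1098 under DMSO. In hAHR cells it measured 3538, 3609 and 3479 against 1327, 1403 and 1342. Tiparp was called by limma in both genotypes (log2 difference 1.30 in C57BL6/J and 1.37 in hAHR cells). Without both C57BL6/J replicate 2 arrays the C57BL6/J difference was 1.03 and was not called. The C57BL6/J call was also lost with equal array medians, without the intensity trend of the test and with only the arrays compared. It was lost with either form of replicate term and in 10 of 12 fits that left out 1 array. In hAHR cells the Tiparp call was lost in 5 of those 12 fits. The 2 C57BL6/J arrays numbered replicate 2 stood apart: Xist, the RNA of the inactive X chromosome, measured 2952 under TCDD and 3085 under DMSO on them. Eif2s3y, a gene of the Y chromosome, measured 0.420 under TCDD and 4.70 under DMSO on the same 2 arrays. The other 10 arrays had Xist at most at 29.3 and Eif2s3y at least at 453.

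None of the 9 regulators passed the test under TCDD in either genotype. In hAHR cells, 0 of 9 were called by limma at an adjusted p under 0.05, where 4 of 18193 genes (0.022%) were called, and 0 of 9 had an unadjusted p under 0.05, where 2.9% of genes did. In C57BL6/J cells, 0 of 9 were called, where 1 gene (0.0055%) was, and 2 of 9, Foxa3 and Cebpb, had an unadjusted p under 0.05, where 4.18% of genes did. Averaged over both genotypes, 0 of 9 were called, where 4 genes (0.022%) were, and Foxa3 alone had an unadjusted p under 0.05, where 3.56% of genes did. In hAHR cells, 0 of 9 genes had all TCDD arrays above all DMSO arrays (3.35% of all genes did) and 2 of 9 had them all below (3.85%), which makes 2 of 9 in either direction (7.2%). In C57BL6/J cells, 1 of 9 had all TCDD arrays above (6.19%) and 0 of 9 had them all below (2.81%), which makes 1 of 9 in either direction (9%). The log2 differences in the text are limma estimates of TCDD minus DMSO on the scale of log2 intensity plus 16. Over the 9 genes their median was 0.06 in hAHR cells and 0.13 in C57BL6/J cells, beside medians over all genes of -0.01 and 0.03. The cells were measured in bulk, so a smaller share of hepatocytes and less RNA per hepatocyte cannot be told apart for any of these genes.

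**Figure D1:**
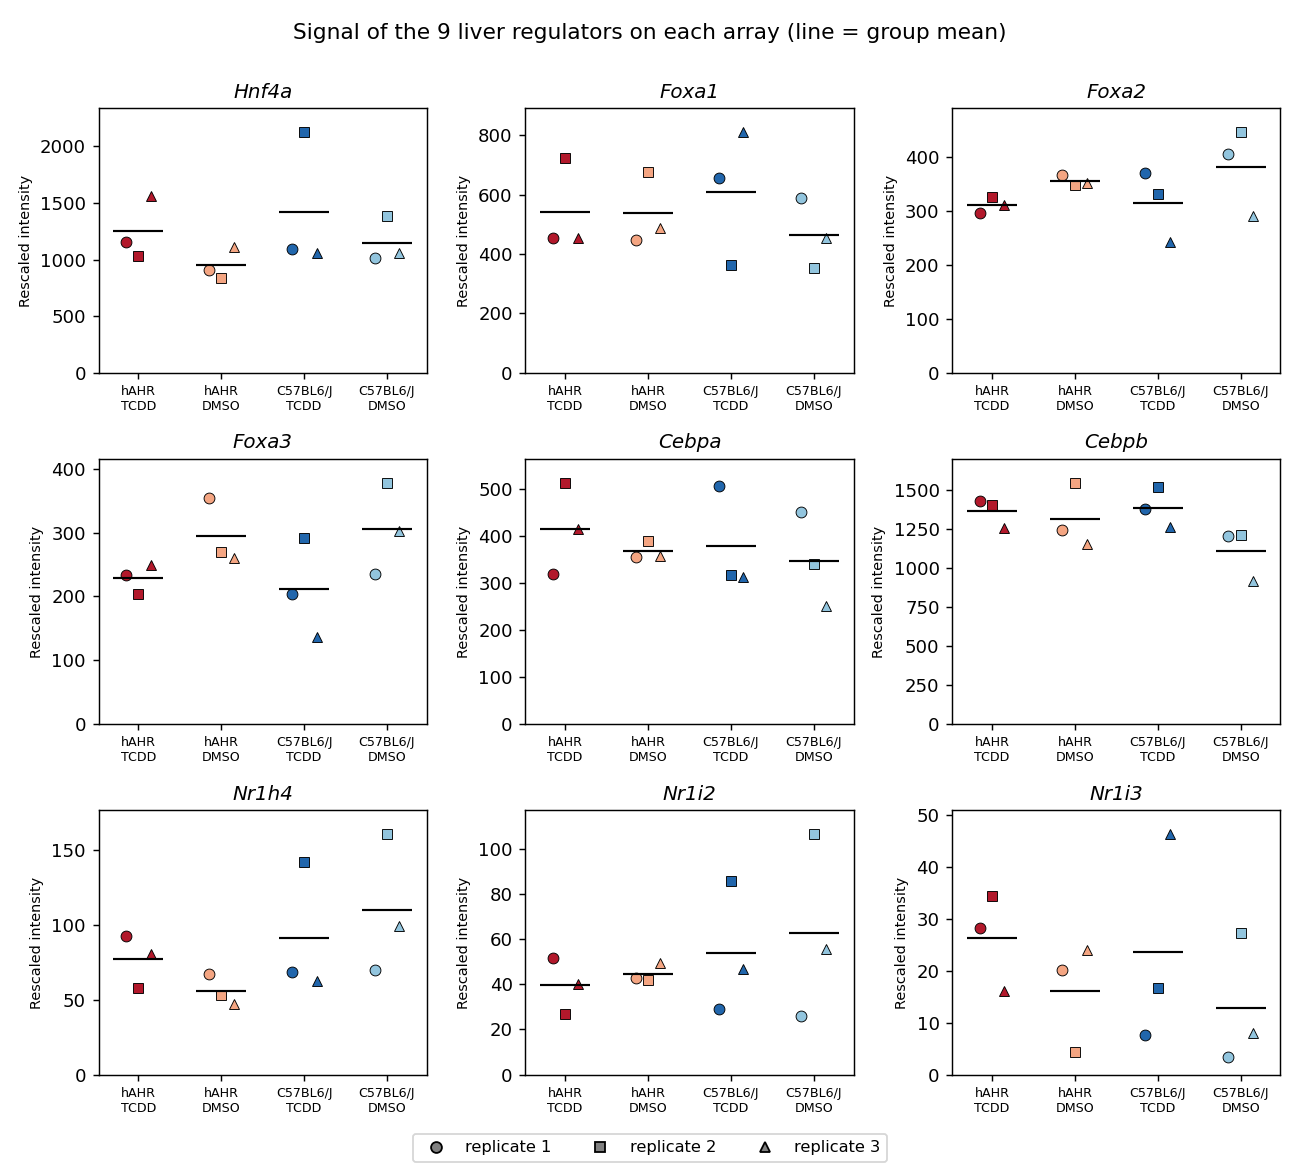
Rescaled intensity (linear, no unit) of the brightest probe set of each of the 9 genes on every array, with hAHR TCDD, hAHR DMSO, C57BL6/J TCDD and C57BL6/J DMSO groups from left to right, the replicate number as the marker shape and the group mean as a line. Foxa2 and Foxa3 had all 3 hAHR TCDD arrays below all 3 hAHR DMSO arrays, and the C57BL6/J replicate 2 squares were the highest points for Nr1h4 and Nr1i2.

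**Figure D2:**
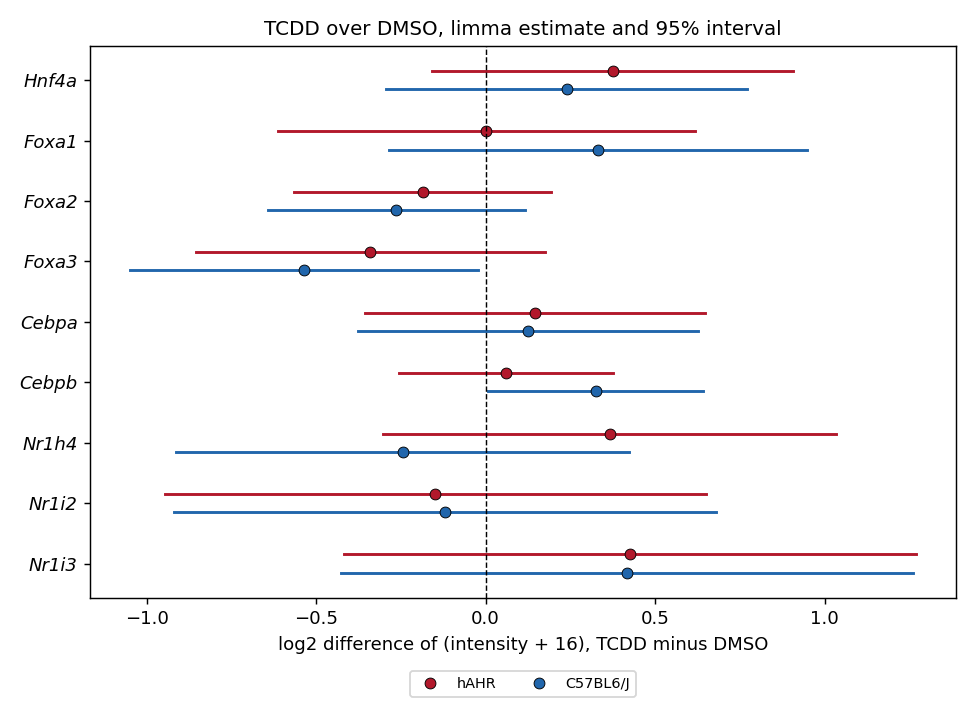
TCDD minus DMSO log2 difference with its 95% confidence interval (limma, 12 arrays) for each gene in hAHR cells (red, upper) and C57BL6/J cells (blue, lower). All intervals in hAHR cells include 0, and in C57BL6/J cells those of Foxa3 (-1.05 to -0.02) and Cebpb (0.01 to 0.64) do not.

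Hnf4a, the nuclear receptor at the centre of the hepatocyte network, measured 1156, 1031 and 1563 on the hAHR TCDD arrays against 905, 839 and 1114 on the hAHR DMSO arrays. The TCDD values were mostly the higher ones, with a single overlap, since the third DMSO array lay above the second TCDD array. The log2 difference was 0.37 ± 0.25 (SE), with a 95% interval of -0.16 to 0.91 and an adjusted p of 1.00 by limma, and it was 0.20 without the third hAHR TCDD array. Wild type cells had Hnf4a at 1090, 2125 and 1054 under TCDD against 1010, 1382 and 1058 under DMSO. Replicate 2 was the highest array in both groups, and the other 4 arrays lay between 1010 and 1090. The log2 difference of 0.24 ± 0.25 (SE, adjusted p = 0.966 by limma) became 0.05 without the 2 replicate 2 arrays and -0.09 without the TCDD one alone. Between arrays of the same replicate number, Hnf4a was higher under TCDD in 5 of 6 pairs, by up to 0.62 on the log2 scale. Foxa1 and Cebpb were also higher in 5 of 6 pairs. The share of all genes with such counts was not computed, and pairing by number was not shown in C57BL6/J cells. Its group means were 1250 ± 278 in hAHR TCDD, 952.5 ± 143 in hAHR DMSO, 1423 ± 608 in C57BL6/J TCDD and 1150 ± 202 in C57BL6/J DMSO cells (SD, n = 3 each), and the ranges of neighbours in that order of size overlapped. The 4 probe sets of Hnf4a followed each other over the 12 arrays with r from 0.75 to 0.94, a description over arrays that share their RNA. They gave TCDD differences of 0.07 to 0.55 in hAHR cells and 0.19 to 0.28 in C57BL6/J cells. On the dimmest of the 4, the hAHR TCDD arrays at 94.1 to 149.5 all lay above the hAHR DMSO arrays at 43.0 to 90.5, with an unadjusted p of 0.164 by limma over all probe sets.

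Foxa3, the forkhead factor of the set that is most tied to adult metabolic tissues, measured 233, 203 and 249 on the hAHR TCDD arrays against 354, 270 and 261 on the hAHR DMSO arrays. All 3 TCDD values lay below all 3 DMSO values. The C57BL6/J arrays gave 203, 292 and 137 under TCDD against 235, 378 and 303 under DMSO. These groups overlapped, since the second TCDD array lay above the first DMSO array. The log2 difference was -0.34 ± 0.24 (SE, unadjusted p = 0.177) in hAHR cells and -0.54 ± 0.24 (SE, unadjusted p = 0.0422) in C57BL6/J cells, both by limma. Averaged over genotypes it was -0.44 ± 0.17 (SE), a fold of 0.738 with a 95% interval of the log2 difference of -0.80 to -0.07, an unadjusted p of 0.0219 and an adjusted p of 0.997 by limma. Foxa3 was lower under TCDD in 6 of 6 pairs of same-numbered arrays, by 0.06 to 1.06 on the log2 scale. The share of all genes with this count was not computed, and the C57BL6/J arrays were not shown to be paired by number. Leaving out any single array kept the averaged difference between -0.56 and -0.31, while the C57BL6/J difference was -0.28 without the third TCDD array and the hAHR difference -0.21 without the first DMSO array. Without both C57BL6/J replicate 2 arrays the averaged difference was -0.48 (unadjusted p = 0.00552, adjusted p = 0.939 by limma). The group means were 228.5 ± 23.1 in hAHR TCDD, 295.1 ± 51.4 in hAHR DMSO, 210.9 ± 78.0 in C57BL6/J TCDD and 305.2 ± 71.1 in C57BL6/J DMSO cells (SD, n = 3 each). In order of size both DMSO groups stood above both TCDD groups, and hAHR DMSO and hAHR TCDD were the one pair of neighbours whose ranges did not overlap.

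Foxa2, which opens liver chromatin for other factors, measured 295, 326 and 312 on the hAHR TCDD arrays against 368, 348 and 352 on the hAHR DMSO arrays. Here too the 2 groups did not overlap, and Foxa2 and Foxa3 are the 2 of 9 genes with this order in hAHR cells. On the C57BL6/J arrays Foxa2 measured 370, 331 and 242 under TCDD against 406, 446 and 291 under DMSO, and the groups overlapped. Its log2 differences were -0.19 ± 0.18 in hAHR cells and -0.26 ± 0.18 in C57BL6/J cells (SE), and -0.22 averaged, with an adjusted p of 0.997 by limma. The C57BL6/J difference was -0.096 without the third TCDD array and -0.44 without the third DMSO array, and the averaged one was -0.14 without the third C57BL6/J TCDD array. Foxa2 was lower under TCDD in 6 of 6 same-numbered pairs, by 0.09 to 0.41 on the log2 scale, with the same limits as for Foxa3.

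Foxa1, the close relative of Foxa2, had no negative TCDD difference in either genotype, unlike Foxa2 and Foxa3. It measured 452, 722 and 454 on the hAHR TCDD arrays against 447, 677 and 488 on the hAHR DMSO arrays, with replicate 2 the highest in both groups. Wild type cells had 654, 361 and 809 under TCDD against 588, 354 and 453 under DMSO, with replicate 2 the lowest in both groups. The log2 differences were 0.00 (95% interval -0.61 to 0.62) and 0.33 (95% interval -0.28 to 0.95). Both intervals include changes in either direction, and the C57BL6/J difference was 0.093 without the third TCDD array and 0.66 without the second.

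Cebpb, the C/EBP member that responds to stress and acute phase signals, measured 1434, 1404 and 1256 on the hAHR TCDD arrays against 1249, 1545 and 1154 on the hAHR DMSO arrays, and these groups overlapped. In wild type cells it measured 1379, 1521 and 1267 under TCDD against 1207, 1213 and 916 under DMSO. There the groups did not overlap, and Cebpb is the 1 of 9 genes with this order in C57BL6/J cells. The log2 difference was 0.06 in hAHR cells and 0.32 ± 0.15 (SE) in C57BL6/J cells, with an unadjusted p of 0.0456 and an adjusted p of 0.966 by limma for C57BL6/J cells. Without the third C57BL6/J DMSO array the C57BL6/J difference was 0.19. The second Cebpb probe set gave 0.26 in hAHR cells and 0.34 in C57BL6/J cells. On it the C57BL6/J groups overlapped, with an unadjusted p of 0.113 by limma over all probe sets. The difference between the genotypes' TCDD effects was -0.26 ± 0.21 (SE, adjusted p = 0.999 by limma).

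Cebpa, the C/EBP member of mature hepatocytes, measured 318, 512 and 416 on the hAHR TCDD arrays against 354, 390 and 358 on the hAHR DMSO arrays. The C57BL6/J arrays had 507, 318 and 313 under TCDD against 451, 340 and 250 under DMSO. The groups overlapped in both genotypes, and the log2 differences of 0.15 and 0.13 (SE 0.23 each) were smaller than their errors.

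Among the 3 sensors, Nr1h4 (FXR) measured 92.5, 58.0 and 80.5 on the hAHR TCDD arrays against 67.1, 53.2 and 47.0 on the hAHR DMSO arrays. In wild type cells it measured 68.9, 142 and 62.6 under TCDD against 69.9, 161 and 99.6 under DMSO. The TCDD difference was 0.37 in hAHR cells and -0.24 in C57BL6/J cells (SE 0.31 each). The test of the difference between these effects gave 0.61 ± 0.44 (SE, unadjusted p = 0.186, adjusted p = 0.999 by limma), so a difference between the genotypes was not shown. Between same-numbered arrays Nr1h4 was higher under TCDD in all 3 hAHR pairs, by 0.38, 0.10 and 0.62 on the log2 scale. The 3 C57BL6/J pairs gave -0.02, -0.16 and -0.56, though pairing by number was not shown in C57BL6/J cells. With the replicate block within genotype the difference of 0.61 had an unadjusted p of 0.0451 and an adjusted p of 0.892 by limma.

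Nr1i2 (PXR), which drives Cyp3a11, measured 51.6, 27.0 and 40.2 on the hAHR TCDD arrays against 42.6, 41.8 and 49.6 on the hAHR DMSO arrays. The C57BL6/J arrays gave 28.9, 85.6 and 46.9 under TCDD against 26.1, 106 and 55.6 under DMSO. In C57BL6/J cells the replicate 2 arrays were the highest and the replicate 1 arrays the lowest of both groups, and the log2 differences of -0.15 and -0.12 (SE 0.37 each) were well inside their errors. Its second, dimmer probe set gave 0.18 and -0.48, with unadjusted p of 0.707 and 0.316 by limma.

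Nr1i3 (CAR), which drives Cyp2b10, measured 28.2, 34.4 and 16.2 on the hAHR TCDD arrays against 20.2, 4.40 and 24.0 on the hAHR DMSO arrays. Wild type arrays gave 7.68, 16.7 and 46.3 under TCDD against 3.40, 27.3 and 8.10 under DMSO. These values lie around the median of all probe sets of an array, and the difference of 0.43 (95% interval -0.42 to 1.27) in hAHR cells and 0.42 (95% interval -0.43 to 1.26) in C57BL6/J cells is therefore poorly determined. The C57BL6/J difference was 0.83 without both replicate 2 arrays and 0.030 without the third TCDD array, and the hAHR difference was 0.13 without the second DMSO array.

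The difference between the TCDD effects of the 2 genotypes was called for 0 of 9 genes, where 0 of 18193 genes (0%) were called by limma, and 0 of 9 had an unadjusted p under 0.05, where 3.15% of genes did. The 4 genes with the smallest p were Nr1h4 at 0.61, Cebpb at -0.26, Foxa1 at -0.33 and Foxa3 at 0.20, as hAHR effect minus C57BL6/J effect on the log2 scale. All 4 intervals included 0, the widest running from -0.33 to 1.55 for Nr1h4. Leaving out single arrays moved them between 0.34 and 0.93 for Nr1h4, -0.35 and -0.13 for Cebpb, -0.66 and -0.091 for Foxa1, and -0.059 and 0.45 for Foxa3.

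The genotypes were compared directly under each treatment, with 0 of 9 genes called in every such comparison. Under DMSO, 2 of all genes (0.011%) were called by limma, and 1 of 9 regulators, Nr1h4, had an unadjusted p under 0.05, where 4.26% of genes did. Under TCDD, 1 of all genes (0.0055%) was called, and 0 of 9 regulators had an unadjusted p under 0.05, where 4.13% of genes did. In the no-overlap counts under DMSO, 0 of 9 had all hAHR arrays above all C57BL6/J arrays (6.28% of all genes did) and 1 of 9 had them all below (4.44%), which makes 1 of 9 in either direction (10.7%). Under TCDD it was 0 of 9 above (3.23%), 0 of 9 below (4.88%) and so 0 of 9 in either direction (8.11%). Averaged over treatments, 6 of all genes (0.033%) were called, and again 0 of 9 regulators had an unadjusted p under 0.05, where 5.34% of genes did.

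Nr1h4 gave the widest separation of genotypes. Its 3 hAHR DMSO arrays, at 47.0 to 67.1, lay below the 3 C57BL6/J DMSO arrays, at 69.9 to 161, and it is the 1 of 9 genes with this order. The log2 difference was -0.76 ± 0.31 (SE), with a 95% interval of -1.43 to -0.09, an unadjusted p of 0.0289 and an adjusted p of 0.965 by limma. Without the 2 C57BL6/J replicate 2 arrays it was -0.48 (unadjusted p = 0.077). Under TCDD the groups overlapped and the difference was -0.15, and 0.17 without those 2 arrays. Averaged over treatments it was -0.45, and -0.16 without them.

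After Nr1h4, the smallest p values under DMSO were those of Cebpb at 0.24, Hnf4a at -0.26 and Foxa1 at 0.21, as hAHR minus C57BL6/J on the log2 scale, all with overlapping groups. Without the third C57BL6/J DMSO array Cebpb was at 0.11, and without the second, as without both replicate 2 arrays, Hnf4a was at -0.13 and Foxa1 at 0.033. Under TCDD the 4 smallest were Nr1i2 at -0.27 (0.16 on its second, dimmer probe set), Foxa3 at 0.16, Cebpa at 0.14 and Hnf4a at -0.13. Without both replicate 2 arrays these were Nr1i2 at 0.039, Foxa3 at 0.41, Cebpa at 0.030 and Hnf4a at 0.20. Averaged over treatments, Hnf4a at -0.20, Cebpb at 0.11 and Nr1i2 at -0.26 followed Nr1h4. Without the 2 replicate 2 arrays the averaged differences of 4 genes had the opposite sign: Hnf4a at 0.04, Nr1i2 at 0.09, Foxa2 at 0.05 (-0.04 with all arrays) and Foxa1 at -0.21 (0.04 with all arrays).

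Markers of Kupffer cells, the macrophages of the liver, were set beside these comparisons. All 9 of 9 measured markers had positive hAHR minus C57BL6/J differences under DMSO (median log2 difference 1.40) and 8 of 9 did under TCDD (median 1.16), though 0 of 9 passed the adjusted test in either comparison. The hAHR arrays all lay above the C57BL6/J arrays for 2 of 9 markers under DMSO (6.28% of all genes) and for 5 of 9 under TCDD (3.23%). Their summed intensity ran from 2043 to 4605 on the hAHR DMSO arrays against 1880 to 3388 on the C57BL6/J DMSO arrays, and from 1865 to 4257 on the hAHR TCDD arrays against 1859 to 4174 on the C57BL6/J TCDD arrays. Most of that sum is Cd68. C1qa, a complement gene of macrophages, lay between 4.20 and 312 on the 6 hAHR arrays, lowest on both replicate 1 arrays. On the 6 C57BL6/J arrays it lay at 0.900 to 25.8. Marco, a scavenger receptor, was at 2.80 or below on all 6 C57BL6/J arrays. On the hAHR arrays Marco measured 4.50, 23.4 and 122 under TCDD and 3.10, 43.4 and 102 under DMSO, so replicate 1 was near the C57BL6/J level. Summed hepatocyte markers ran from 48270 to 59169 against 44266 to 53879 under DMSO, and from 49119 to 59718 against 48099 to 65776 under TCDD, each with the hAHR arrays named first. The part of other cells in the genotype differences of the regulators was not tested.

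**Figure D3:**
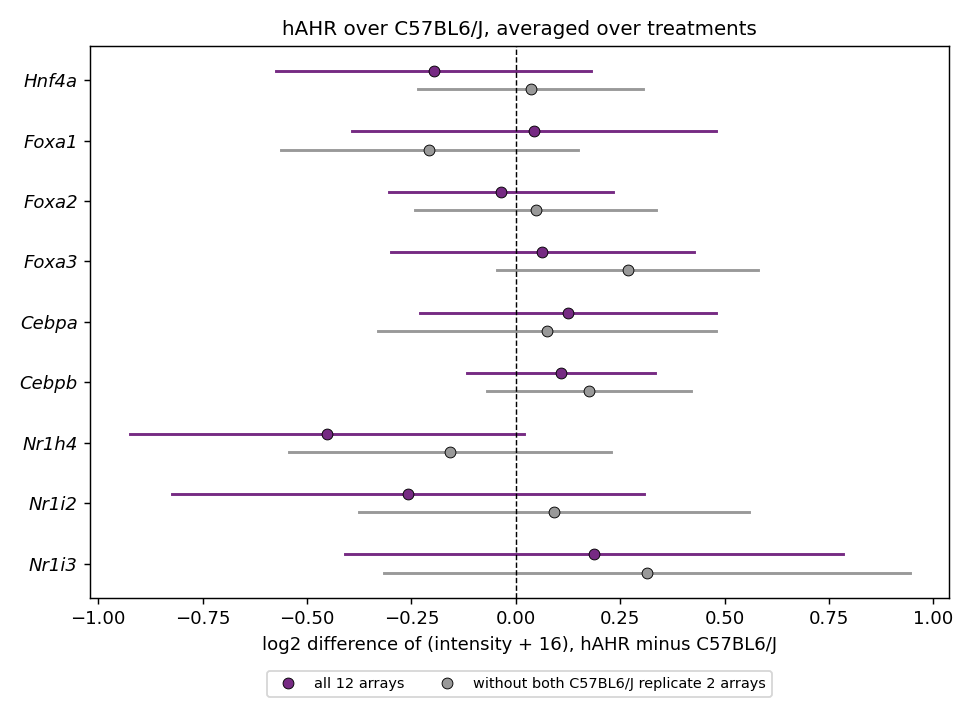
hAHR minus C57BL6/J log2 difference averaged over treatments, with its 95% confidence interval (limma), from all 12 arrays (purple, upper) and without both C57BL6/J replicate 2 arrays (grey, lower). Hnf4a was at -0.20 with all arrays and 0.04 without these, Nr1i2 at -0.26 and 0.09, and Nr1h4 at -0.45 and -0.16.

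Which array lay farthest from the others of a C57BL6/J group differed between genes, and the replicate 2 arrays took extreme ranks for Hnf4a, Foxa1, Nr1h4 and Nr1i2. Of the 12 arrays, Nr1h4 and Nr1i2 were highest on the DMSO replicate 2 array and second highest on the TCDD one. Hnf4a was highest on the TCDD replicate 2 array and at rank 3 on the DMSO one, while Foxa1 was lowest on the DMSO array and second lowest on the TCDD array. Targets of the sensors differed there as well. Cyp2b10, the CAR target, measured 1402 under TCDD and 1435 under DMSO on the replicate 2 arrays, against 137 to 174 on the other 4 C57BL6/J arrays and 420 to 580 on the hAHR arrays. Cyp3a11, the PXR target, ran the other way, with 3902 under TCDD and 4645 under DMSO against 6679 to 11010 on the other 4 C57BL6/J arrays. Ahr measured 442 and 617 on the replicate 2 arrays, against 223 to 261 on the other 4. These 2 arrays also carried the Xist signal, so any effect of the animals' sex and of other differences between these mice cannot be told apart.

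**Figure D4:**
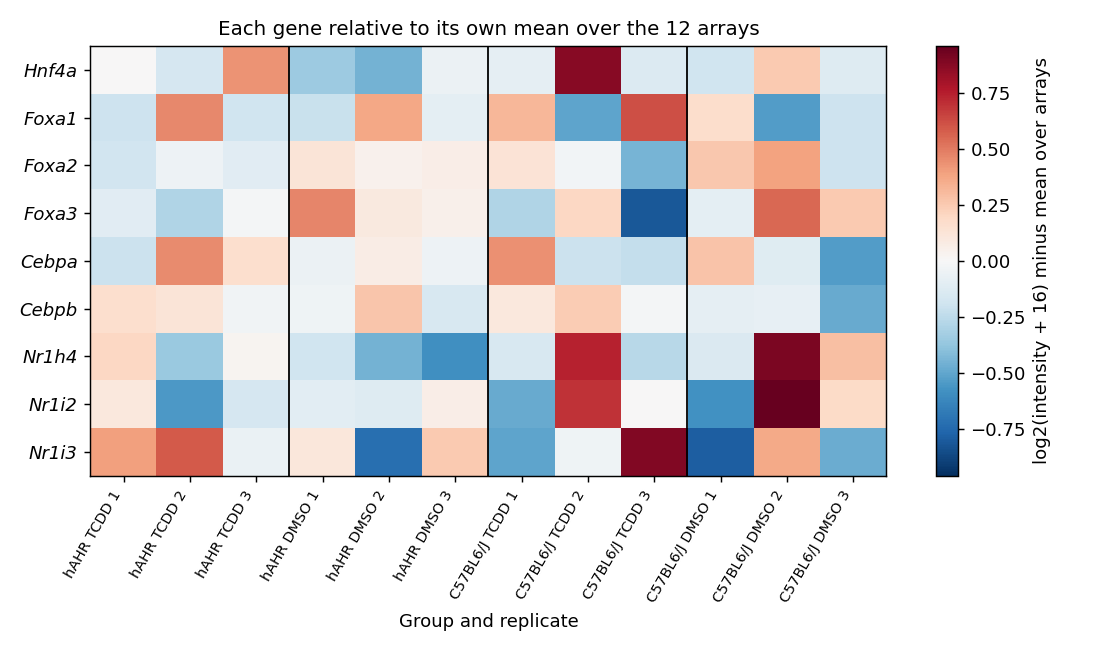
Log2 intensity plus 16 of each gene on each array minus the gene's mean over the 12 arrays (colour, red above and blue below the mean), with arrays grouped as hAHR TCDD, hAHR DMSO, C57BL6/J TCDD and C57BL6/J DMSO and numbered by replicate. The C57BL6/J columns numbered 2 are red for Hnf4a, Nr1h4 and Nr1i2 and blue for Foxa1 under both treatments.

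To show which other genes had the most similar pattern, each regulator was compared over the 12 arrays with the genes of mean intensity of at least 100, as Pearson's r of log2 values. This is a description over arrays of 4 groups, and the closest were picked from 7294 or 7295 genes, which favours high r. The closest to Hnf4a were Deptor, Nedd4l and Abcb4 (r 0.92 to 0.94), and to Foxa1 they were Zfp655, Rragc and Bach1 (0.97 to 0.98). Foxa2 was closest to Cdk9, Ifit3 and Gpr155 (0.89 to 0.91) and Foxa3 to Tmem185b, Zdhhc12 and B4galnt1 (0.93 to 0.94). Cebpa was closest to Foxk1, Mfsd5 and Fam83h (0.89 to 0.96) and Cebpb to Slc35e3, Btbd7 and Pwp2 (all 0.83). For the sensors they were Klhl13, Rilp and Tpmt for Nr1h4 (0.94 to 0.96), Fggy, Lyplal1 and Ctso for Nr1i2 (0.92 to 0.95), and Rnf225, Nudt7 and Agt for Nr1i3 (0.78 to 0.81). None of the 9 genes was among the closest 3 of another, though Nr1h4, Nr1i2 and Nr1i3 were too dim to be candidates.

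The partners of the regulators showed no called change either. Of 20 other liver transcription factors measured, 0 were called under TCDD in either genotype, with 6 positive and 14 negative differences in hAHR cells (median -0.07) and 13 positive and 7 negative in C57BL6/J cells (median 0.10). Gata6, a GATA factor of liver development, measured 354, 339 and 341 on the hAHR TCDD arrays against 516, 406 and 409 on the hAHR DMSO arrays. Its groups did not overlap there, and its difference of -0.34 had an unadjusted p of 0.0345 and an adjusted p of 1.00 by limma, against -0.18 in C57BL6/J cells. Cebpd, the C/EBP relative induced with Cebpb in acute phase responses, measured 146, 244 and 203 on the hAHR TCDD arrays against 216, 324 and 265 on the hAHR DMSO arrays. The C57BL6/J arrays had 237, 225 and 250 under TCDD against 260, 222 and 184 under DMSO.

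Of 27 other nuclear receptors measured, 0 were called, with medians of 0.04 in hAHR and 0.07 in C57BL6/J cells. Rxra, which encodes the partner of FXR, PXR and CAR, averaged 135 ± 25.1 on the hAHR TCDD arrays and 136 ± 14.8 on the hAHR DMSO arrays, and 143 ± 48.9 under TCDD and 136 ± 49.1 under DMSO in C57BL6/J cells (SD, n = 3 each). Nr0b2, which encodes the repressor SHP that FXR induces, lay between 5.64 and 30.8 on all 12 arrays, around the array medians. Rxrg, an RXR form of low signal here, measured 2.97, 1.23 and 2.46 on the C57BL6/J TCDD arrays against 10.9, 18.5 and 12.6 on the C57BL6/J DMSO arrays (difference -0.71, unadjusted p = 0.028 by limma), all around or below the array medians. The size of this difference depended on the offset, at -2.71 with an offset of 0 (values floored at 1) and -0.29 with an offset of 50.

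Of 16 coactivators and corepressors measured, 0 were called. Cited2, which encodes a protein that binds the coactivators CBP and p300, measured 934, 1184 and 1304 on the hAHR TCDD arrays against 1918, 1874 and 2003 on the hAHR DMSO arrays. Every TCDD array lay below every DMSO array in hAHR cells. In wild type cells it measured 1603, 989 and 772 under TCDD against 1922, 2118 and 1263 under DMSO, and the groups overlapped. The log2 differences were -0.76 (unadjusted p = 0.00765) and -0.68 (unadjusted p = 0.0148), with adjusted p of 1.00 and 0.966 by limma. No member of the 9 regulators had a TCDD difference of this size in both genotypes.

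Target genes were counted in the same way. Of 18 measured targets of HNF4A and FOXA, 0 were called under TCDD, with medians of 0.00 in hAHR and 0.15 in C57BL6/J cells, and Alb averaged 14352 ± 1769 against 13543 ± 2044 in hAHR cells and 13883 ± 1990 against 12449 ± 1727 in C57BL6/J cells (TCDD against DMSO, SD, n = 3 each). Of 13 C/EBP targets, 0 were called, with medians of 0.05 and 0.16. Of 12 FXR targets, 0 were called, with medians of -0.02 and 0.08. Among these, Cyp7a1, the rate-limiting enzyme of bile acid synthesis, lay between 13.0 and 29.5 on all 12 arrays, around the array medians. Abcb11, the bile salt export pump, measured 90.8, 134 and 116 on the hAHR TCDD arrays against 95.9, 108 and 153 on the hAHR DMSO arrays. On the C57BL6/J arrays Abcb11 measured 115, 67.6 and 220 under TCDD against 107, 69.3 and 90.2 under DMSO. Slc51a encodes a subunit of a bile acid exporter. It measured 22.8, 11.9 and 36.2 on the C57BL6/J TCDD arrays against 5.60, 11.3 and 2.40 on the C57BL6/J DMSO arrays. These values were near or below the array medians, except 36.2 on the third TCDD array, whose median was 21.8. The difference was 0.79 (unadjusted p = 0.00696, adjusted p = 0.966 by limma). The size of this difference depended on the offset, at 2.00 with an offset of 0 (values floored at 1) and 0.37 with an offset of 50. In hAHR cells its difference was -0.27, and the test of the difference between genotypes gave an unadjusted p of 0.00985 and an adjusted p of 0.999 by limma.

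Of 16 measured PXR and CAR targets, 0 were called, with medians of -0.06 in hAHR and 0.14 in C57BL6/J cells. Cyp3a11 differed by -0.02 in hAHR and 0.15 in C57BL6/J cells, and Cyp2b10 by 0.02 and -0.09. Of 12 measured genes that mark the loss of the hepatocyte state in culture, 0 were called, and 10 of 12 had a negative TCDD difference in C57BL6/J cells (median -0.39), against 6 of 12 in hAHR cells (median -0.03). Cd24a, a surface protein of progenitor cells, had the smallest p of these, with 222, 178 and 163 on the C57BL6/J TCDD arrays against 262, 254 and 551 on the C57BL6/J DMSO arrays (difference -0.79, unadjusted p = 0.0188, adjusted p = 0.966 by limma). Summed over the 12 genes, intensity was 3788, 4095 and 2017 on the C57BL6/J TCDD arrays against 3852, 4238 and 5920 under DMSO. The third arrays therefore carried most of the difference in that sum. All these lists are short and share genes, so their counts and medians describe them and set none apart from other genes.

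**Figure D5:**
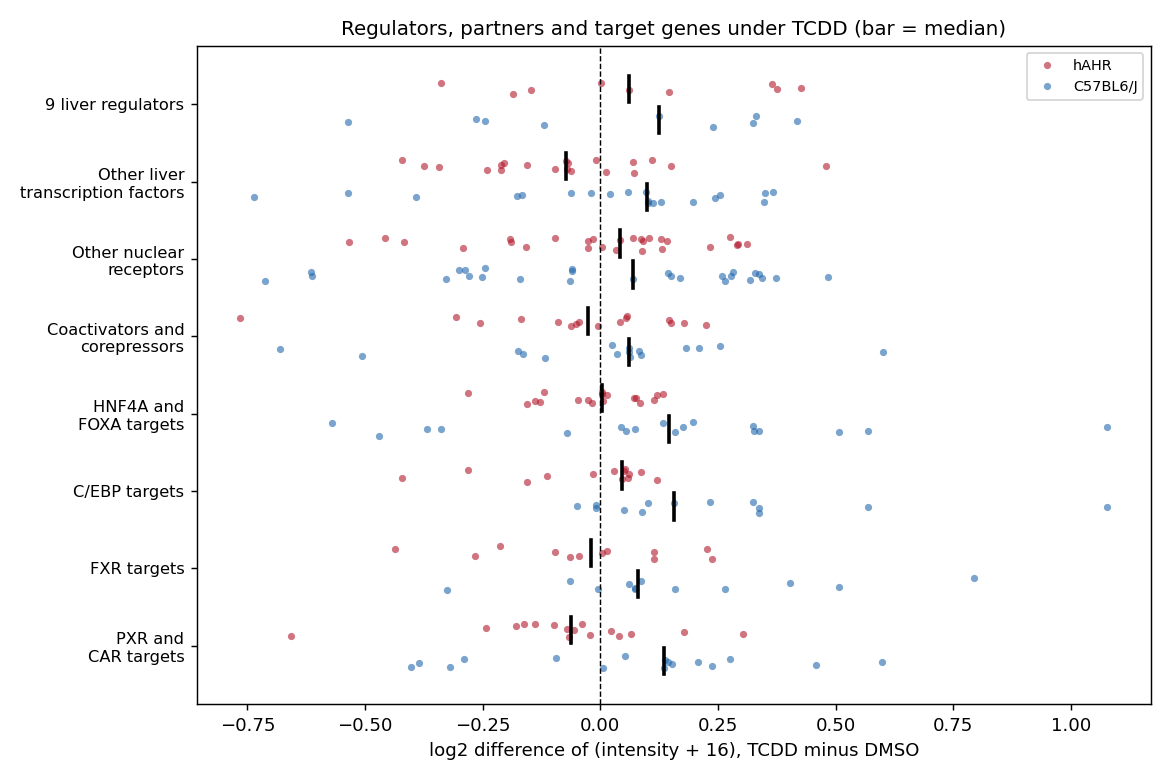
TCDD minus DMSO log2 difference (horizontal axis) of every measured gene in the 9 regulators and in 7 lists of related factors, cofactors and targets, in hAHR cells (red, upper row of each pair) and C57BL6/J cells (blue, lower row), with the list median as a bar. The medians lie between -0.07 and 0.06 in hAHR cells and between 0.06 and 0.16 in C57BL6/J cells.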

How the data were processed

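RNA of 12 hepatocyte cultures was measured on Affymetrix arrays. The authors deposited linear intensity values per probe set, for which PLIER and Affymetrix Expression Console 1.1 are named per the submitters' processing notes. The design text names SAM for the tests, in whose place limma was used. The deposited intensity had a 2% trimmed mean of 150 on 9 arrays and 500 on the 3 C57BL6/J TCDD arrays, so each array was rescaled to 150. That other scale fell on this group alone, so any effect of separate processing cannot be told apart in its comparisons. Probe sets were named through a table of the platform annotation: 34945 of 45037 had 1 symbol, 932 several and 9160 none. Each gene was represented by its probe set with the highest mean (18193 genes). limma 3.58.1 in R 4.3.3 fitted log2(intensity + 16), giving each group its own mean and leaving 8 residual degrees of freedom among 12 arrays, with eBayes using an intensity trend and two-sided Benjamini-Hochberg adjustment over all genes of a comparison, and the fit was tested on simulated data. The number of arrays limits the precision. The p-values measure the spread between mice only if each array is a separate mouse, as the design text counts them. Same-numbered TCDD and DMSO arrays deviated together in part, and whether they share a mouse was not tested. The main fit treats them as independent, also where both treatments are averaged to compare genotypes.

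The 9 regulators and the 15 other lists were chosen with earlier results of these data known. Named genes were the 9 regulators, fixed counterparts (Ahr, Cyp1a1, Tiparp, Nr0b2, Rxra, Cebpd, Cyp2b10, Cyp3a11, Cyp7a1, Abcb11 and Alb), list genes among the 4 smallest p of a list (of which the text gives the smallest under TCDD in a genotype, where that p was under 0.05), and the 3 genes most similar to each regulator. C1qa, Marco, Cd68, Xist and Eif2s3y were chosen after their values were seen. Listed genes without a probe set of their symbol alone were not analysed here. Same-numbered TCDD and DMSO arrays deviated together in hAHR cells (r 0.19 to 0.27 over genes, other pairings at most -0.04), but not in all pairs of C57BL6/J cells (0.05 to 0.51), so the fit has no replicate term and a fit with one was an alternative. Alternatives covered the offset, the scaling, dim genes, the fit, the probe sets, the replicate term and left-out arrays. Promoters are those of RefSeq on GRCm38.p6. Plots used Python 3.11.15 with matplotlib 3.10.9.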

Additional observations from a re-analysis of the deposited data

Results flagged for a closer look

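The regulators, the fixed counterparts and the list genes given for TCDD were screened for opposite TCDD effects. Among them, Cebpd alone had its 3 TCDD arrays on opposite sides of the DMSO mean in the 2 genotypes. The genes most similar to each regulator, C1qa, Marco, Cd68, Xist and Eif2s3y were not screened. On the log2 scale the hAHR TCDD arrays lay 0.79, 0.11 and 0.36 below the mean of the hAHR DMSO arrays (differences of -0.79, -0.11 and -0.36). The C57BL6/J TCDD arrays lay above the mean of the C57BL6/J DMSO arrays, by 0.10, 0.03 and 0.17. The hAHR effect minus the C57BL6/J effect was -0.52 ± 0.28 (SE, unadjusted p = 0.0839, adjusted p = 0.999 by limma), which did not pass the test. None of the 9 regulators showed such a split.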

How the results depend on the processing

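In the alternative settings run (25 for TCDD within a genotype, 23 for the genotypes averaged over treatments and 24 for each other comparison), 0 of the 9 regulators was called. Averaged over genotypes, the TCDD difference of Foxa3 (-0.56 to -0.31) and Foxa2 stayed negative and that of Hnf4a (0.14 to 0.39) positive in each setting. A constant sign was not particular to these genes. Cebpa (0.03 to 0.29), Cebpb (0.13 to 0.25), Foxa1 (0.05 to 0.33) and Nr1i3 (0.21 to 0.98) also stayed positive. Only Nr1h4 and Nr1i2 changed sign. The replicate block within genotype gave Foxa3 an unadjusted p of 0.00595 (adjusted p = 0.648 by limma) and changed no call of a regulator. The cause of the changes below was not tested.

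Genes called over all 18193 numbered 4 with an offset of 50 and 4 with array weights for hAHR over C57BL6/J under DMSO (2 as reported). Under TCDD in hAHR cells (4 as reported) they numbered 2 with quantile normalization, 2 without the intensity trend and 1 with the mean over probe sets, which also gave 1 averaged over genotypes (4 as reported). In C57BL6/J cells (1 as reported) they numbered 2 with array weights, 2 with every probe set tested, and 0 with equal medians, without the trend, with the shared replicate block, without both C57BL6/J replicate 2 arrays and with only the arrays compared. For hAHR over C57BL6/J under TCDD (1 as reported) they numbered 5 with array weights, 2 with every probe set and 3 without both replicate 2 arrays, and averaged over treatments (6 as reported) 11 with array weights and 10 with every probe set. The difference between TCDD effects (0 as reported) had 1 without both replicate 2 arrays. Cyp1a1, called in hAHR cells in the main fit, was not called with quantile normalization, without the trend or with the shared replicate block. It was also not called with every probe set tested, with the mean over probe sets or in 10 of 12 fits without 1 array. Leaving out single arrays gave 0 to 6 for TCDD in hAHR, 0 to 1 in C57BL6/J and 2 to 5 averaged, 1 to 3 between genotypes under DMSO, 1 to 2 under TCDD, and 0 to 1 for the difference.

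Small log2 differences changed sign. With array weights the TCDD difference of Foxa1 in hAHR was -0.051, those of Nr0b2 and Rxra in C57BL6/J 0.086 and -0.090, and the hAHR minus C57BL6/J differences under TCDD 0.075 for Hnf4a, -0.16 for Cebpa and 0.099 for Nr1i2. Without both replicate 2 arrays the last were 0.20 for Hnf4a and 0.039 for Nr1i2, and averaged over treatments 0.035 and 0.091. The mean over probe sets gave 0.015 for Nr1i2, -0.012 for Cyp2b10 and 0.079 for Cyp7a1 in hAHR. Quantile normalization gave 0.0092 for Rxra and -0.012 for Alb in hAHR and -0.042 for Cyp7a1 in C57BL6/J. Equal medians gave 0.0053 for Rxra and 0.00028 for Cyp3a11 in hAHR, and -0.045 for Rxra, -0.014 for Cebpd and -0.055 for Cyp7a1 in C57BL6/J.

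Leaving out single arrays also changed signs. TCDD differences in hAHR cells ran from -0.17 to 0.13 for Abcb11, from -0.12 to 0.022 for Ahr, from -0.025 to 0.19 for Alb, from -0.012 to 0.32 for Cebpa and from -0.028 to 0.18 for Cebpb. TCDD differences in hAHR cells also ran from -0.12 to 0.10 for Cyp2b10, from -0.089 to 0.062 for Cyp3a11, from -0.22 to 0.18 for Foxa1, from -0.29 to 0.17 for Nr0b2 and from -0.30 to 0.025 for Nr1i2. TCDD differences in hAHR cells also ran from -0.10 to 0.13 for Rxra and from -0.27 to 0.32 for Rxrg. TCDD differences in C57BL6/J cells ran from -0.52 to 0.18 for Ahr, from -0.094 to 0.33 for Cebpa, from -0.016 to 0.21 for Cebpd, from -1.12 to 0.90 for Cyp2b10 and from -0.19 to 0.56 for Cyp3a11. TCDD differences in C57BL6/J cells also ran from -0.13 to 0.17 for Cyp7a1, from -0.086 to 0.41 for Hnf4a, from -0.23 to 0.17 for Nr0b2, from -0.56 to 0.031 for Nr1h4 and from -0.50 to 0.27 for Nr1i2. TCDD differences in C57BL6/J cells also ran from -0.17 to 0.31 for Rxra. hAHR minus C57BL6/J differences under TCDD ran from -0.023 to 0.35 for Cebpa, from -0.094 to 0.41 for Foxa3, from -0.30 to 0.20 for Hnf4a and from -0.55 to 0.039 for Nr1i2. The difference between TCDD effects ran from -0.059 to 0.45 for Foxa3.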
